A study of Rattus norvegicus with 12 samples.

Results

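The genes described here encode 10 enzymes that break down threonine, make serine and carry one-carbon units on folate: Tdh, Gcat, Gldc, Shmt1, Shmt2, Mthfd1, Mthfd2, Phgdh, Psat1 and Psph. They were taken by name from the array platform's gene table, among 14218 genes with a probe set of a single symbol, and 12 probe sets belonged to them. Gldc had 3 probe sets and each other gene had 1, and Gldc is given by its brightest one on average over all arrays. Tdh was chosen by its measured level over these same lines, being among the genes that set the arrays with ES markers apart. Its values are therefore given as a description without a test. The other 9 enzymes, called the linked enzymes below, were taken for their place in the same pathways and were tested. All 10 genes passed the filter on dim genes, with 1 line mean or more at or above 5 log2 units.

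The series holds 12 arrays, 2 for each of 6 lines or cultures. A1 and A2 were induced pluripotent stem cell (iPS) lines of the FHH rat strain, from a series that names a transposon system in its title, and were kept on mitomycin C-treated mouse feeder fibroblasts with LIF. DAC2 and DAC8 were rat embryonic stem (ES) cell lines whose strain the labels do not give. REF1 and REF2 were embryonic fibroblast (EF) cultures from FHH embryos at stage e14.5. The iPS and ES cells were in 2i medium and were labelled positive for SSEA-1 and Sox2, and their RNA was taken 5 days after passage, while the fibroblasts were in MEF medium and were taken at 6 days. The labels do not say whether feeders were removed, whether a line grew from 1 clone, or whether separate cultures stood behind its 2 arrays. The spread that the p-values below rest on is that between arrays and may be technical.

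The labels were checked against marker genes. By their ES, fibroblast and neural markers, DAC2 and REF1 alone of the 6 lines followed their labels. The arrays labelled DAC8 had all 16 fibroblast markers at or above 5, with a median level of 12.13, and 5 of the 12 ES markers on the array. In the arrays labelled REF2, 5 of 16 fibroblast markers reached 5, against 11 of the 12 ES markers, with a median ES marker level of 9.95. The iPS lines had 4 (A1) and 5 (A2) of the 12 ES markers at or above 5, with medians of 4.82 and 4.86, whereas 14 of 15 neural markers reached 5 in each, with medians of 10.20 and 10.27. In each iPS line 10 of 16 fibroblast markers also reached 5, with medians of 5.58 (A1) and 5.57 (A2). The bar of 5 is low, as 9 of 15 neural markers reached it in DAC8 and in REF1. DAC2 had 11 of 12 ES markers and 5 of 16 fibroblast markers. REF1 had 16 of 16 fibroblast markers and 6 of 12 ES markers, with an ES median of 4.81. Of 6 trophoblast markers, 4 reached 5 in DAC2 and in REF2, with medians of 6.54 and 6.08, and 2 did in each other line. No array was moved to another group, and the lines were compared one by one. The comparisons iPS minus DAC2, iPS minus REF1 and DAC2 minus REF1 involve neither DAC8 nor REF2, while the counts over all 12 arrays, the likeness to Tdh and the labelled cell types include both. Array medians lay between 5.28 and 5.41, and the median SD between the 2 arrays of a line was 0.0863 log2 units. With 2 arrays a line, precision is limited by that number.

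As background, threonine dehydrogenase (Tdh) oxidises threonine in mitochondria, and Gcat splits the product into glycine and acetyl-CoA. Gldc is the glycine-binding subunit of the mitochondrial glycine cleavage system, which moves a carbon of glycine onto tetrahydrofolate. Serine, the other main donor of one-carbon units, is made from a glycolytic intermediate by Phgdh, Psat1 and Psph in turn, and the serine hydroxymethyltransferases Shmt1 (cytosol) and Shmt2 (mitochondria) pass its carbon to folate. Mthfd1 (cytosol) and Mthfd2 (mitochondria) then interconvert the folate-bound forms used for purines, thymidylate and methyl groups. Mouse ES cells are known for very high Tdh and for needing threonine in the medium, whereas the human TDH gene is a pseudogene.

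The promoters of 8 of the 10 genes were in the RefSeq table of the build GRCr8, and those of Tdh and Mthfd1 were not listed in it. Shown are the 250 bases before the annotated start of Gcat and Gldc, the linked enzymes nearest to Tdh in pattern, and of 2 serine synthesis genes that were highest in the iPS lines. Capitals mark CCAAT boxes, searched on both strands (CCAAT or ATTGG). The Gcat promoter lies at chr7:112475322-112475571, plus strand, that of Gldc at chr1:237375605-237375854, minus strand, that of Phgdh at chr2:188624790-188625039, minus strand and that of Psat1 at chr1:222645409-222645658, minus strand. Each is written 5′ to 3′ along its gene.
Gcat: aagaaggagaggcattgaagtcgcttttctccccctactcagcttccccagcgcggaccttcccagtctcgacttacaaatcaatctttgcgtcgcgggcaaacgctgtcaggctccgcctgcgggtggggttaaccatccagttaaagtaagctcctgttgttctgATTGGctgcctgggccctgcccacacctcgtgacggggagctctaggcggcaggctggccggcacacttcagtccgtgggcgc
Gldc: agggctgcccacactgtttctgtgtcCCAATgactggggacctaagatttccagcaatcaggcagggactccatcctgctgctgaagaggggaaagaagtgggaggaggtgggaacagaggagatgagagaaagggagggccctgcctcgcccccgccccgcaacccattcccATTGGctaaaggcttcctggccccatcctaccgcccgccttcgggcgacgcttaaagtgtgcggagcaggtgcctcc
Phgdh: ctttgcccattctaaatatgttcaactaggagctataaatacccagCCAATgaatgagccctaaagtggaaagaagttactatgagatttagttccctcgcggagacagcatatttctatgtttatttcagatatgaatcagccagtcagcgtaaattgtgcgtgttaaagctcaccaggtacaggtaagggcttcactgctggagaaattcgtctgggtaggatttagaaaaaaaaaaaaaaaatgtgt
Psat1: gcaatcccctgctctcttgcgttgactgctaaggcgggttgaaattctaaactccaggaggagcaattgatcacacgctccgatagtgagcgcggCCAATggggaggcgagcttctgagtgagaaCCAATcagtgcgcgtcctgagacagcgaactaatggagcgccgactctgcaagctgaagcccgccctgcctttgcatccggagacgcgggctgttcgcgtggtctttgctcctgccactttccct
Gcat and Gldc each held a CCAAT box on the opposite strand close to the start, ending 79 and 73 bases before it, and Gldc held a second one. Phgdh held 1 and Psat1 held 2. Among the promoters not shown, Shmt1 held 1 and Mthfd2 held 3, while Shmt2 and the serine synthesis gene Psph held 0. Of 33469 rat promoters of the same length, 34.0% held such a box, so its presence is common. One form of the amino acid response element of ATF4-driven genes (TGATGNAAT, either strand) was found in 0 of the 8 promoters and in 0.944% of all promoters. Other forms of it and bases outside these 250 were not searched. With so few matches among all promoters, 0 of 8 does not show that these genes lack the element. The E-box CACGTG, which reads the same on both strands, was found only in Shmt1 among the 8, in 2 copies, and in 5.59% of all promoters. No motif overlapped another of these kinds, and a match in these letters is a description of the sequence only.

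Tdh separated the lines over a wide range. Its log2 level was 7.997 and 7.99 in A1, 7.72 and 7.70 in A2, 12.45 and 12.43 in DAC2, 3.69 and 3.57 in DAC8, 3.21 and 3.58 in REF1 and 12.90 and 12.88 in REF2. The arrays of DAC2 and REF2 were far above all others, both iPS lines lay between them and the rest, and DAC8 and REF1 overlapped. In bulk samples, fewer cells of a type and less RNA per cell cannot be told apart. Every DAC8 and REF1 array was below 5, a level not shown to be above background on these arrays. The iPS mean was lower than DAC2 by a log2 difference of -4.59 and higher than REF1 by 4.46, and DAC2 was higher than REF1 by 9.05. The differences from REF1 are at best lower bounds on their size.

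**Figure D1:**
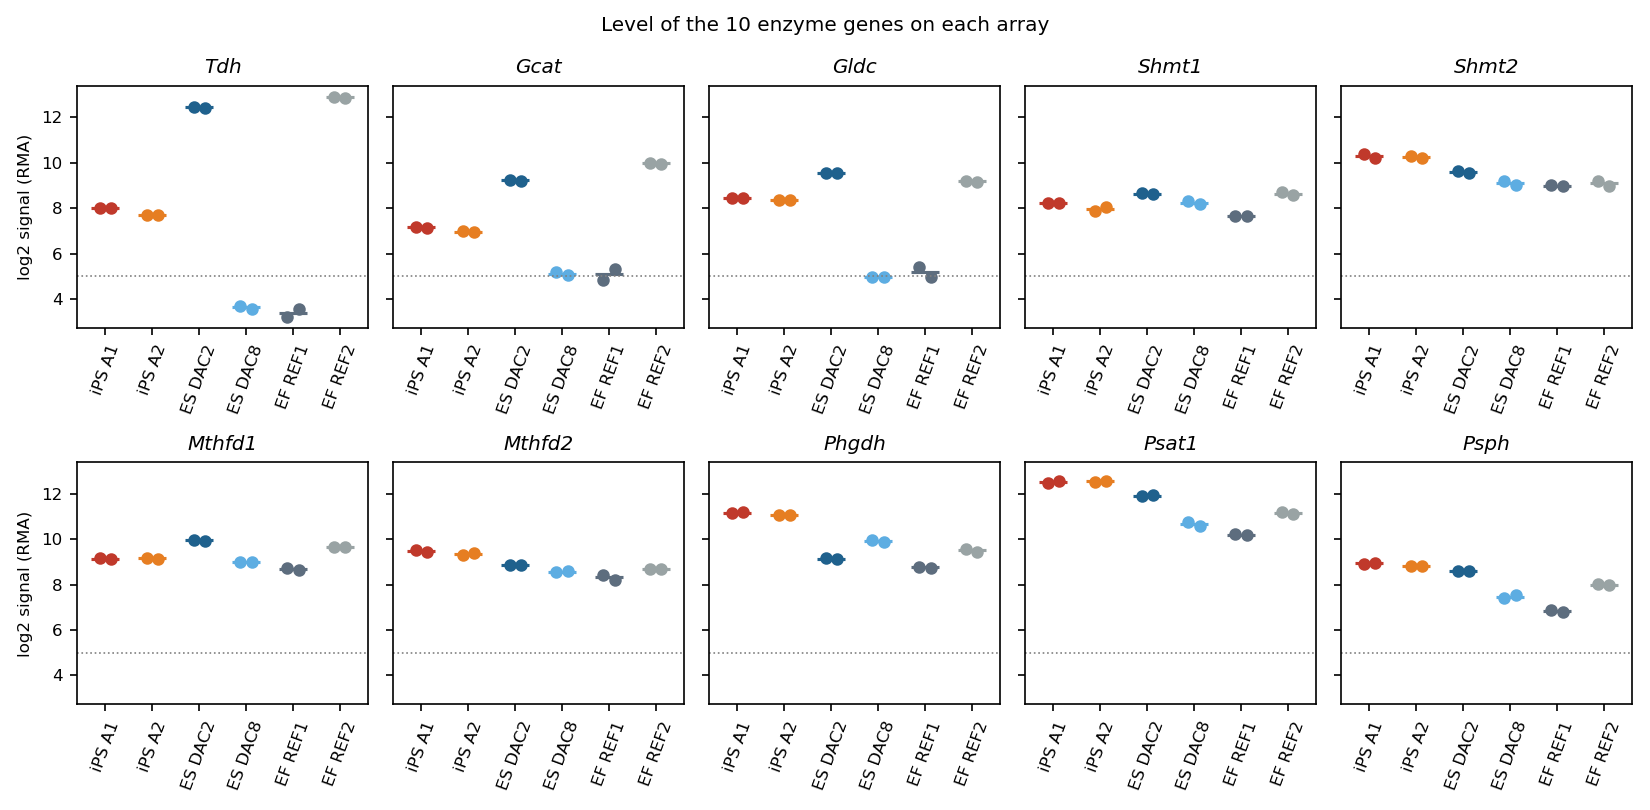
Log2 signal of the 10 enzyme genes on each of the 12 arrays, by line, with a bar at the mean of the 2 arrays of a line and a dotted line at 5. Tdh, Gcat and Gldc are high in ES DAC2 and EF REF2, intermediate in both iPS lines and near or below 5 in ES DAC8 and EF REF1, while Phgdh and Psat1 are highest in the iPS lines.

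Gcat, which acts directly after Tdh, had the same order of lines over a smaller range. It was at 7.17 and 7.13 in A1, 6.98 and 6.94 in A2, 9.26 and 9.20 in DAC2, 5.17 and 5.07 in DAC8, 4.84 and 5.33 in REF1 and 10.00 and 9.96 in REF2. As for Tdh, only the arrays of DAC8 and REF1 overlapped, and REF2 was the highest line. Gcat was lower in iPS than in DAC2 by a log2 difference of -2.17 ± 0.11 (± SE, 4 arrays against 2, limma adjusted p = 8.05e-08) and higher in iPS than in REF1 by 1.97 ± 0.11 (adjusted p = 1.35e-07). Between DAC2 and REF1 it differed by 4.15 ± 0.13 (2 arrays against 2, adjusted p = 2.2e-09), at best a lower bound since REF1 lay near 5. In this and all line comparisons a gene was called at an adjusted p under 0.05, over 11001 genes, together with a difference of at least 2-fold.

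Gldc, which decarboxylates glycine and passes its aminomethyl group to the carrier protein Gcsh, was at 8.44 and 8.46 in A1, 8.34 and 8.36 in A2, 9.55 and 9.55 in DAC2, 4.98 and 4.99 in DAC8, 5.43 and 4.99 in REF1 and 9.22 and 9.15 in REF2. DAC2 rather than REF2 was highest, and no lines overlapped, although 1 REF1 array nearly met the DAC8 arrays. The difference from DAC2 was -1.15 ± 0.10 (adjusted p = 3.81e-06), and that from REF1 was 3.19 ± 0.10 (adjusted p = 2.28e-09), where REF1 again lay near 5. DAC2 minus REF1 was 4.34 ± 0.12 (adjusted p = 8.05e-10). Of the other Gldc probe sets, the second ran from 2.62 to 6.18 with the 2 DAC2 arrays highest and the 2 DAC8 arrays lowest, and the third lay between 2.95 and 3.35 on all arrays, below 5 throughout. With the mean of the 3 probe sets, the third included, the iPS difference from DAC2 was -0.89 and was no longer called. The second probe set alone gave -1.38, still called, with iPS below 5 (4.70). For the brightest probe set the call was lost in a test against 2-fold itself.

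Among the lines labelled ES, Gcat and Gldc were higher in DAC2 than in DAC8 by 4.11 ± 0.13 and 4.56 ± 0.12 (adjusted p = 2.31e-09 and 5.86e-10). Among those labelled EF they were higher in REF2 than in REF1 by 4.90 ± 0.13 and 3.97 ± 0.12 (adjusted p = 8.2e-10 and 1.52e-09). DAC8 minus REF2, an ES against an EF label, gave -4.86 ± 0.13 for Gcat and -4.20 ± 0.12 for Gldc. A measure of RNA quality moved with this split. The 3′ minus 5′ difference of the beta-actin control was 0.84 to 0.88 in the iPS and DAC2 arrays and 0.94 to 1.05 in REF2, and 0.42 to 0.52 in DAC8 and REF1. Its part in the enzyme levels was not tested.

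**Figure D2:**
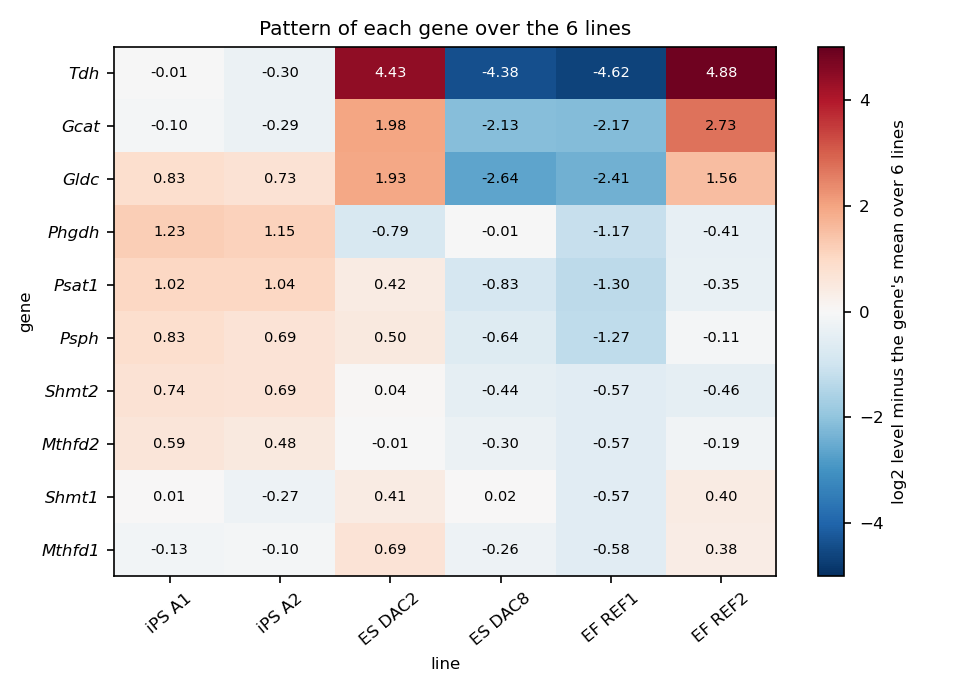
Log2 level of each gene in each line minus the gene's own mean over the 6 lines, printed in each cell and shown as colour. Tdh spans -4.62 in REF1 to 4.88 in REF2, Gcat and Gldc keep its sign in DAC2, DAC8, REF1 and REF2, and the 3 serine synthesis genes are at their highest in A1 and A2.

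Serine synthesis had another pattern, with its highest levels in the iPS lines. Phgdh, which catalyses the first step, was at 11.15 and 11.19 in A1, 11.09 and 11.07 in A2, 9.15 and 9.14 in DAC2, 9.96 and 9.90 in DAC8, 8.80 and 8.73 in REF1 and 9.58 and 9.46 in REF2. No neighbouring lines overlapped, and DAC2, where Tdh was high, was the second lowest line. Phgdh was higher in iPS than in DAC2 by 1.98 ± 0.05, which is 3.94-fold (limma adjusted p = 7.59e-10), and higher than in REF1 by 2.36 ± 0.05, which is 5.14-fold (adjusted p = 2.14e-10). It was also called against DAC8 (1.20 ± 0.05) and REF2 (1.60 ± 0.05), comparisons that use the same iPS arrays.

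Psat1, the transaminase of the pathway, was at 12.47 and 12.58 in A1, 12.52 and 12.58 in A2, 11.91 and 11.93 in DAC2, 10.77 and 10.59 in DAC8, 10.23 and 10.18 in REF1 and 11.21 and 11.09 in REF2. The A1 and A2 arrays overlapped, and each further line was separate. Psat1 was higher in iPS than in REF1 by 2.33 ± 0.07 (5.02-fold, adjusted p = 1.19e-09) and called against DAC8 and REF2 (1.86 ± 0.07 and 1.39 ± 0.07). Against DAC2 the difference was 0.62 ± 0.07 (adjusted p = 1.64e-05), which is 1.53-fold and not called. DAC2 exceeded REF1 by 1.71 ± 0.08 (adjusted p = 2.37e-08).

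Psph, the phosphatase that releases serine, was at 8.93 and 8.97 in A1, 8.82 and 8.80 in A2, 8.62 and 8.62 in DAC2, 7.41 and 7.54 in DAC8, 6.87 and 6.81 in REF1 and 8.01 and 7.996 in REF2. Its lines did not overlap, with DAC2 close under the iPS lines. Psph was higher in iPS than in REF1 by 2.04 ± 0.05 (4.10-fold, adjusted p = 4.92e-10), and the difference from DAC2 was 0.26 ± 0.05 (adjusted p = 0.000972), which is 1.20-fold and not called. DAC2 minus REF1 was 1.78 ± 0.06 (adjusted p = 2.91e-09). Psat1 and Psph were each other's nearest members over the lines (root mean square difference of the centred line means 0.21 log2 units), whereas Phgdh lay nearest to Shmt2 (0.53). In DAC2 minus REF1, Phgdh stood at 0.38 ± 0.06 (adjusted p = 0.000186, not called).

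Shmt2 and Mthfd2, mitochondrial folate enzymes among the 10 members, were also highest in the iPS lines, with smaller differences. Shmt2 was at 10.39 and 10.21 in A1, 10.30 and 10.21 in A2, 9.64 and 9.57 in DAC2, 9.22 and 9.02 in DAC8, 9.01 and 8.96 in REF1 and 9.20 and 8.99 in REF2. A1 overlapped with A2, and REF2 with both DAC8 and REF1. Shmt2 was higher in iPS than in REF1 by 1.29 ± 0.08 (adjusted p = 3.64e-07), than in DAC8 by 1.16 ± 0.08 and than in REF2 by 1.18 ± 0.08, and it differed from DAC2 by 0.67 ± 0.08 (adjusted p = 4.72e-05, not called). In a test against 2-fold itself the calls against DAC8 and REF2 were lost. Mthfd2, which acts on the unit that Shmt2 releases, ranged from 8.23 to 9.53 and was called only against REF1 among the iPS comparisons (1.10 ± 0.06, adjusted p = 1.31e-07), a call also lost in that test. Shmt2 and Mthfd2 lay 0.17 log2 units apart over the lines, the smallest distance between any 2 of the 10 genes. Genes with small ranges lie close by this measure, as Shmt1 and Mthfd1 did at 0.19. Pairs of other genes were not measured beside them.

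The cytosolic members Shmt1 and Mthfd1 had their highest line means in DAC2. Shmt1 ranged from 7.65 to 8.70, with overlap between DAC2 and REF2 and between DAC8 and A1. It was called in none of the line comparisons, and DAC2 minus REF1, at 0.98 ± 0.07 (1.98-fold, adjusted p = 9.16e-07), lay just under the fold minimum. Mthfd1, a trifunctional enzyme, ranged from 8.64 to 9.98 and was called only in DAC2 minus REF1, at 1.28 ± 0.05 (2.42-fold, adjusted p = 1.1e-08). In iPS against DAC2 it stood at -0.81 ± 0.04 (adjusted p = 1.22e-07, not called). In the same comparison Shmt1 stood at -0.54 ± 0.06 and Mthfd2 at 0.54 ± 0.06. Shmt1 and Mthfd1 were thus below DAC2, and Shmt2 and Mthfd2 above it, none by 2-fold.

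**Figure D3:**
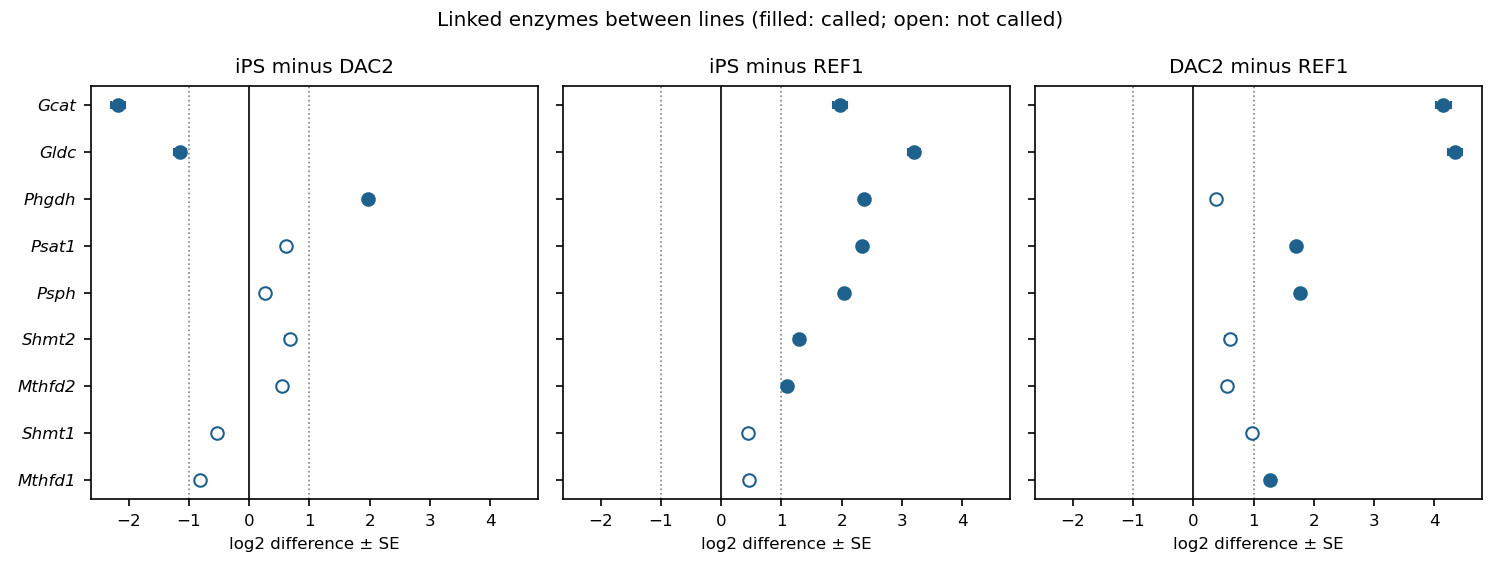
Log2 difference ± SE of the 9 linked enzymes in iPS minus DAC2, iPS minus REF1 and DAC2 minus REF1, with dotted lines at the 2-fold minimum and filled points for called genes. Most SE bars are narrower than the points. Gcat and Gldc lie left of 0 in iPS minus DAC2 and right of it in the others, and Phgdh has its largest values in the iPS comparisons.

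Counted over the 9 linked enzymes, 1 was called higher (Phgdh) and 2 lower (Gcat and Gldc) in iPS against DAC2, where 29.8% of all genes tested were called (16.5% higher and 13.3% lower). In iPS against REF1, 7 were called higher and 0 lower, with 32.7% of all genes called and 16.4% higher. The median difference of the 9 was 1.97 there, against 0.12 over all genes. In DAC2 against REF1, 5 were called higher (Gcat, Gldc, Mthfd1, Psat1 and Psph) and 0 lower, with 41.0% of all genes called (20.1% higher and 20.9% lower). These 3 comparisons share arrays with one another and are not separate findings.

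Across the other line comparisons, 6 were called higher in iPS than in DAC8 (31.8% of all genes called, 15.6% higher and 16.2% lower), and 3 higher and 1 lower in iPS than in REF2 (30.8%, 15.8% higher and 15.0% lower). Of the 9, 4 were called higher in DAC2 than in DAC8 (40.2%, 19.8% higher and 20.4% lower). Of the 9, 3 were called higher in REF2 than in REF1 (40.3%, 20.7% higher and 19.6% lower), and 2 lower in DAC8 than in REF2 (39.9%, 19.5% higher and 20.3% lower). In DAC2 against REF2, limma called 0 of 9, where 4.0% of all genes were called (1.05% higher and 2.95% lower). By unadjusted p under 0.05 alone 8 of 9 differed there, as did 5824 of all 11001 genes tested. The 8 included Gcat at -0.75 ± 0.13, Gldc at 0.37 ± 0.12, Psat1 at 0.77 ± 0.08 and Psph at 0.62 ± 0.06. In DAC8 against REF1 only Phgdh was called, at 1.16 ± 0.06 (2.24-fold, adjusted p = 9.11e-06), where 1.53% of all genes were called (0.727% higher and 0.800% lower). Tested against 2-fold itself, 0 were called there. In A1 against A2 limma called 0 of 9, and 0.218% of all genes were called (0.136% higher and 0.0818% lower). By unadjusted p under 0.05 alone, 2 of 9 differed there, as did 1532 of all 11001 genes tested.

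In 5 of the 9 linked enzymes (Shmt2, Mthfd2, Phgdh, Psat1 and Psph) all 4 iPS arrays lay above all 8 other arrays, as they did for 20.2% of all genes tested. Markers of other cells moved with this pattern. The 15 neural markers had a median of 10.20 in A1 and 10.27 in A2 and between 4.40 and 5.29 in the other 4 lines, and 14 of the 15 reached 5 in each iPS line. Elavl4, which marks neurons, was at 10.70 in A1 and 10.64 in A2 and between 3.33 and 4.05 in the other lines. Not every marker of the list went this way. Ncam1 was lower in A1 and A2 (5.96 and 5.80) than in DAC8 and REF1 (7.45 and 7.32). Sox1 was below 5 in every line, at 3.01 in A1 and 3.05 in A2. The summed linear signal of the neural markers was 26067 in A1 and 25925 in A2, against 644.5 to 1426 in the other lines. The part of these markers in the enzyme levels was not tested, and a change in the mix of cells and a change per cell cannot be told apart here.

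Proliferation genes moved with the split between DAC2 and REF1. The median level of 18 such genes was 9.85 in A1, 9.79 in A2, 10.52 in DAC2, 8.75 in DAC8, 8.68 in REF1 and 10.42 in REF2. Of the 18, 16 were called higher in DAC2 than in REF1 and 13 higher in iPS than in REF1, while 3 were called lower in iPS than in DAC2. Over all genes tested, 20.1%, 16.4% and 13.3% were called in these directions. The part of proliferation in the enzyme levels was not tested.

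By the labels, the comparison of iPS with ES lines asked whether the reprogrammed lines resembled ES cells. With each line's 2 arrays averaged (2 lines a cell type), limma called 0 of the 9 linked enzymes in iPS against ES. Of all genes, 2.26% were called there (1.83% higher and 0.436% lower). By unadjusted p under 0.05 alone, 2 of 9 differed, as did 1583 of all 11001 genes tested. In iPS against EF limma called 0 of 9 and 2.53% of all genes (2.02% higher and 0.509% lower). By unadjusted p under 0.05 alone, 4 of 9 differed there, as did 1658 of 11001 genes. In ES against EF limma called 0 of 9 and 0% of all genes. By unadjusted p under 0.05 alone, 0 of 9 and 25 of 11001 genes differed there. The largest values were those of Phgdh, at 1.59 ± 0.42 in iPS minus ES (adjusted p = 0.202) and 1.98 ± 0.42 in iPS minus EF (adjusted p = 0.128), followed by Psat1 at 1.24 ± 0.56 (adjusted p = 0.453) and 1.86 ± 0.56 (adjusted p = 0.246). Shmt2 stood at 0.92 ± 0.26 and 1.23 ± 0.26 (adjusted p = 0.231 and 0.128). With the line as a random block over 12 arrays, Phgdh was called in both, and Psat1 in iPS minus EF. Gcat stood at -0.12 ± 2.17 in iPS minus ES, but at 1.93 without DAC2 and -2.17 without DAC8. In iPS minus EF it stood at -0.48 ± 2.17, but at 1.97 without REF2 and -2.93 without REF1. Each ES or EF mean of Gcat and Gldc thus averaged a line near 5 with a line above 9.

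How far the linked enzymes followed Tdh was measured as the root mean square difference over the 6 line means, after each gene's mean over the lines was subtracted. It has no test, since Tdh was chosen for its pattern and the 6 lines fall into 3 kinds of profile. A gene that did not vary at all would lie 3.74 log2 units from Tdh, and the median over 11000 genes was 3.70. Gcat, at 1.90, ranked 64th nearest (0.573% of genes were nearer) and Gldc, at 2.12, ranked 113th (1.02% nearer), but 404th with the mean of its probe sets. The other linked enzymes lay between 3.35 (Psph, rank 2108) and 3.87 (Phgdh, rank 7115, 64.7% nearer). This distance weighs the size of a change as well as its order, so a gene with a small range over the lines lies near 3.74 whatever its pattern, and these values do not show how the order of the lines compares with that of Tdh. Mthfd1, for instance, lay 3.35 from Tdh, although its levels relative to its own mean were 0.69 in DAC2, 0.38 in REF2, -0.10 in A2, -0.13 in A1, -0.26 in DAC8 and -0.58 in REF1. DAC2 and REF2 were thus highest and DAC8 and REF1 lowest for it too.

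The 5 other genes nearest to Tdh were Ifitm1, an interferon-induced membrane protein (0.88), Sall4, a zinc finger factor of pluripotent cells (1.09), the microtubule protein Map7 (1.11), the Ras-related gene Rasd1 (1.11) and Sox2 (1.15), a transcription factor that neural progenitors share with pluripotent cells. Ifitm1 was at 8.40 in A1, 9.19 in A2, 12.28 in DAC2, 4.11 in DAC8, 5.46 in REF1 and 12.44 in REF2. Likeness over 6 lines says nothing of shared control.

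**Figure D4:**
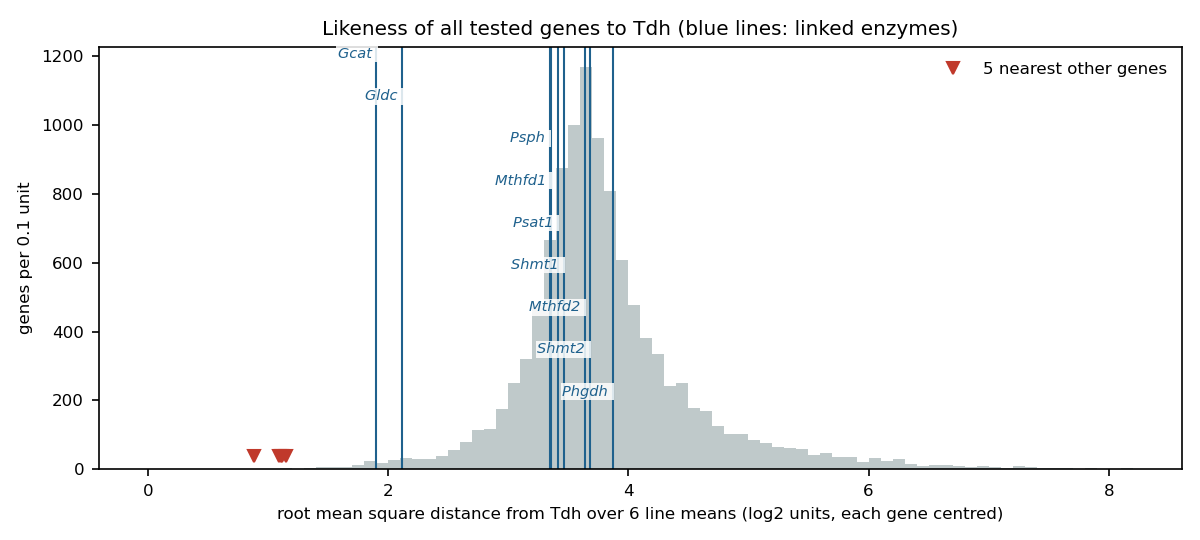
Number of genes at each root mean square distance from Tdh over the 6 centred line means (log2 units, bins of 0.1), with blue lines at the 9 linked enzymes and red triangles at the 5 nearest other genes. Gcat at 1.90 and Gldc at 2.12 stand left of the bulk, and the other 7 linked enzymes, which have smaller ranges, lie within it.

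The wider pathways were read from 5 lists. The list for threonine, serine and glycine breakdown and synthesis held 7 tested genes, among them Aass, which acts in lysine breakdown instead. In DAC2 minus REF1, 2 of the 7 were called higher and 2, Aass among them, lower. Of all genes 41.0% were called there, 20.1% higher and 20.9% lower. Amt, the subunit that works with Gldc in glycine cleavage, was at 6.14 in A1, 5.94 in A2, 9.95 in DAC2, 5.52 in DAC8, 5.49 in REF1 and 9.70 in REF2. It was higher in DAC2 than in REF1 by 4.46 ± 0.09 (adjusted p = 1.74e-10) and lower in iPS than in DAC2 by -3.91 ± 0.08 (adjusted p = 1.73e-10), and it was not called in iPS against REF1. Gcsh, the lipoyl carrier of the same complex, was at 11.14 in A1, 11.13 in A2, 11.655 in DAC2, 10.09 in DAC8, 9.83 in REF1 and 11.47 in REF2. It was higher in DAC2 than in REF1 by 1.82 ± 0.06 (adjusted p = 3.73e-09) and higher in iPS than in REF1 by 1.31 ± 0.05. Sardh, a mitochondrial sarcosine dehydrogenase, ran the other way, at -2.88 ± 0.13 in DAC2 minus REF1 and 2.75 ± 0.11 in iPS minus DAC2, with DAC2 below 5. Aass, which starts lysine breakdown, stood at -3.52 ± 0.17 in DAC2 minus REF1 and -2.71 ± 0.15 in iPS minus REF1, with A1, A2 and DAC2 below 5.

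Of 14 tested folate cycle and folate transport genes, 4 were called higher and 4 lower in iPS than in DAC2, 3 higher and 1 lower in iPS than in REF1, and 7 higher and 2 lower in DAC2 than in REF1. These are 57.1%, 28.6% and 64.3% of the list, against 29.8%, 32.7% and 41.0% of all genes. Folr1, a folate receptor, was at 4.12 in A1, 4.02 in A2, 9.33 in DAC2, 3.87 in DAC8, 4.05 in REF1 and 10.15 in REF2, so it was below 5 in 4 lines. Ftcd, which takes one-carbon units from histidine breakdown, was lower in iPS than in DAC2 by -4.76 ± 0.26 and higher in DAC2 than in REF1 by 3.58 ± 0.30, and lay below 5 outside DAC2 and REF2. Mthfd2l, a close relative of Mthfd2, ran the other way at 3.23 ± 0.14 in iPS minus DAC2 and -2.68 ± 0.16 in DAC2 minus REF1, with DAC2 below 5. The gene called lower in iPS than in REF1 was Ftcd, below 5 on both sides. Mthfd1l, the mitochondrial formate-producing enzyme, was higher in iPS than in REF1 by 2.70 ± 0.09 (adjusted p = 3.42e-09), and Ggh, a folate-trimming hydrolase, by 1.81 ± 0.05.

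Of 14 tested genes of the methionine and S-adenosylmethionine cycle, 3 were called higher and 3 lower in iPS than in DAC2, 3 higher and 1 lower in iPS than in REF1, and 4 higher and 1 lower in DAC2 than in REF1. These are 42.9%, 28.6% and 35.7% of the list, against 29.8%, 32.7% and 41.0% of all genes. The transsulfuration enzymes, which draw on serine, went opposite ways. Cbs, the first step, was at 4.21 in A1, 4.29 in A2, 7.03 in DAC2, 4.04 in DAC8, 4.42 in REF1 and 6.65 in REF2, and Cth, the second, was at 7.51, 7.50, 2.73, 6.47, 6.45 and 2.90 in the same lines. In iPS minus DAC2, Cbs stood at -2.78 ± 0.09 (adjusted p = 3.83e-09) and Cth at 4.78 ± 0.11 (adjusted p = 4.51e-10), with the lower side below 5 in each. In iPS minus REF1, Ahcy, which clears S-adenosylhomocysteine, was higher by 1.13 ± 0.04, Sms, a polyamine synthase, by 1.25 ± 0.05, and Mat2b, a regulatory subunit of methionine adenosyltransferase, stood at -1.33 ± 0.05. Pemt, a methyltransferase of phospholipid synthesis, stood at -2.13 ± 0.15 in iPS minus DAC2.

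Purine and thymidylate synthesis genes were mostly called in 1 direction against REF1. Of 12 tested, 9 were called higher and 0 lower in iPS than in REF1 (16.4% of all genes higher), with a median difference of 1.33 against 0.12 over all genes, and 5 higher and 0 lower in DAC2 than in REF1 (20.1%). In iPS against DAC2, 2 were called higher and 0 lower (16.5% of all genes higher), namely Prps2, which makes the ribose donor, at 2.61 ± 0.05 and Tk1, thymidine kinase, at 1.29 ± 0.07. Pfas, a step of purine synthesis, was higher in iPS than in REF1 by 1.91 ± 0.05 and Dut, which removes dUTP, by 1.79 ± 0.04, and both were also called in DAC2 minus REF1, as was Prps1 at 1.58 ± 0.06. The proliferation medians above moved the same way against REF1, and their part in this was not tested.

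Of 25 tested genes of the amino acid response, which ATF4 drives and which is known to include Phgdh, Psat1, Psph, Shmt2 and Mthfd2 as targets in mouse and human cells, 7 were called higher and 3 lower in iPS than in REF1 (32.7% of all genes called). In iPS against DAC2 5 were called higher and 2 lower (29.8%), and in DAC2 against REF1 5 higher and 6 lower (41.0%). Atf5, a relative of ATF4, was higher in iPS than in DAC2 by 2.94 ± 0.07 and the cystine carrier Slc7a11 by 1.87 ± 0.23, with DAC2 below 5 for Slc7a11. Ddit4, an inhibitor of mTOR signalling, was higher in iPS than in REF1 by 2.31 ± 0.06. Nupr1, a stress-induced chromatin protein, stood at -2.55 ± 0.07 and Cebpb, a partner of ATF4, at -2.48 ± 0.07 in the same comparison. Vldlr, a lipoprotein receptor, stood at -4.50 ± 0.08 in DAC2 minus REF1 and 3.62 ± 0.07 in iPS minus DAC2, with DAC2 below 5.

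**Figure D5:**
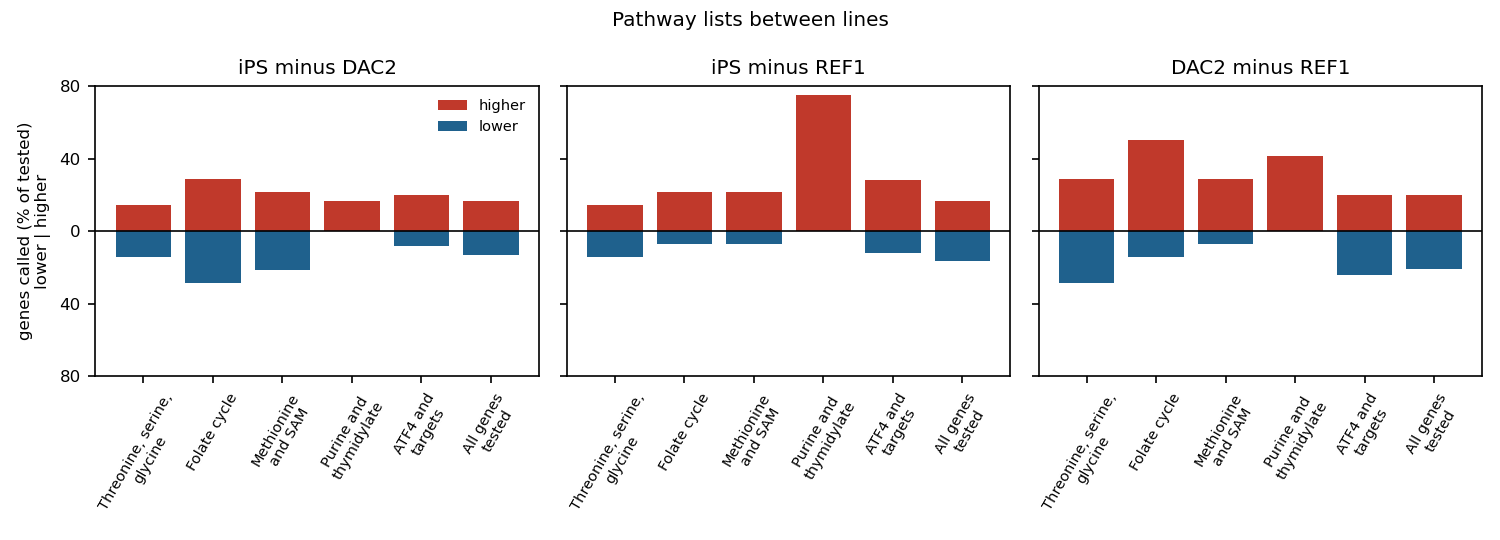
Percent of tested genes called higher (red, up) and lower (blue, down) in iPS minus DAC2, iPS minus REF1 and DAC2 minus REF1 for the 5 pathway lists and for all genes tested. The purine and thymidylate list has 9 of 12 genes higher in iPS minus REF1 and 0 lower in any of the 3 comparisons.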

How the data were processed

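Per the labels, about 100 ng of RNA per sample was amplified and biotin-labelled. For 31099 probe sets the authors deposited log2 values, and the submitters' processing notes name RMA and Partek 6.2. In RMA a background correction comes before normalization and probe summary, and differences of dim genes are compressed. No source used here says if the 12 arrays were normalized as 1 set. The values, from 1.45 to 14.12, were used as deposited.

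Of the probe sets, 20832 had 1 gene symbol in the platform's table, 436 had several and 9831 were not listed. The probe set with the highest mean stood for each of 14218 genes, and the 11001 with a line mean of at least 5 were tested. Lines were compared with limma 3.58.1 (R 4.3.3), with 6 lines as the factor and all 12 arrays sharing 1 spread, in 11 contrasts. Labelled cell types were compared on 6 line means in 3 contrasts. Calls needed a Benjamini-Hochberg adjusted p under 0.05 over all genes and at least 2-fold. The members, lists and tests were chosen with earlier results of these data known. Named were all members, the 5 genes nearest to Tdh, and up to 3 called genes with the largest difference per list in iPS minus DAC2, iPS minus REF1 and DAC2 minus REF1.

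Simulated arrays of 11001 genes were used to test the fits with 50 changed at each size. For DAC2 minus REF1 the line fit recovered 98% of changes of 1.5 and 100% of changes of 2 log2 units, with 0 false calls among 149. These simulated arrays held only the spread between arrays of a line. Their false calls therefore say nothing of variation between lines or cultures. For iPS minus ES on line means a spread between lines was added. It was taken from lines paired by label, so the unlike pairs DAC2 with DAC8 and REF1 with REF2 entered it. There 4% of changes of 2 and 50% of changes of 4 were recovered, with 0 false calls among 27, so under that spread the fit misses most changes of the size seen here. Same-numbered arrays of most pairs of lines deviated together little, with a median correlation of their deviations of 0.013. It exceeded 0.1 in 3 of 15 pairs: DAC2 with REF2 (0.239), A1 with A2 (0.181) and REF1 with REF2 (0.145). Alternatives were the filter, probe sets, normalization, variance prior, call rule, blocks, and arrays or lines left out. Plots were drawn with matplotlib 3.10.9.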

Additional observations from a re-analysis of the deposited data

Results flagged for a closer look

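Gcat and Gldc differed in opposite directions from the 2 lines labelled ES. Gcat was lower in iPS than in DAC2 by a log2 difference of -2.17 ± 0.11 and higher in iPS than in DAC8 by 1.93 ± 0.11, and the difference between these contrasts, tested as DAC2 minus DAC8 in limma, was 4.11 (adjusted p = 2.31e-09). Gldc stood at -1.15 ± 0.10 in iPS minus DAC2 and 3.42 ± 0.10 in iPS minus DAC8, with a difference of 4.56 (adjusted p = 5.86e-10). Between the lines labelled EF, Gcat stood at -2.93 ± 0.11 in iPS minus REF2 and 1.97 ± 0.11 in iPS minus REF1, with a difference of 4.90 (adjusted p = 8.2e-10). Markers moved with all 3: the ES markers had a median of 10.14 in DAC2, against 4.53 in DAC8, and of 9.95 in REF2, against 4.81 in REF1. Their part was not tested.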

How the results depend on the processing

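Of 347 recomputed counts of linked enzymes called, 332 stayed within 1.5 times the reported count, and 2025 of 2087 recomputed differences of single enzymes kept their sign and their side of the threshold. Many of these could not change. The filter, the variance prior and an array left out of a line outside a comparison leave the difference of an enzyme as it was. These totals are therefore not a measure of robustness. With an adjusted p alone and no fold minimum, the count was 9 in iPS against DAC2, against REF2, in DAC2 against REF1 and against DAC8, 8 in REF2 against REF1, 7 in DAC2 against REF2 and in DAC8 against REF2, and 6 in DAC8 against REF1. This rule called 8918 to 9267 genes in the 8 comparisons that called 3281 to 4513 with it, 5032 in place of 440 in DAC2 against REF2, 2174 in place of 168 in DAC8 against REF1 and 199 in place of 24 in A1 against A2. A test against 2-fold itself called 0 linked enzymes in DAC8 against REF1, and 31, 132 and 9 genes in those last comparisons (DAC8 against REF1, DAC2 against REF2, A1 against A2). It also ended the calls of Gldc in iPS minus DAC2, Shmt2 in iPS minus DAC8 and iPS minus REF2, and Mthfd2 in iPS minus REF1. With only the lines compared in the fit A1 against A2 gave 11. Between labelled cell types, where line means called 0 linked enzymes, the line as a random block called 1 in iPS against ES and 2 in iPS against EF, arrays without block 2 and 4, and the replicate block (with the line as a random block) 1 and 1. Over all genes these 3 fits called 512, 1518 and 469 in iPS against ES in place of 249, and 556, 1585 and 500 in iPS against EF in place of 278. The test against 2-fold gave 111 and 110. In iPS against ES 0 genes were called without A1, A2, DAC2 or DAC8 and 101 without REF1 or REF2, and in iPS against EF 0 without A1, A2, REF1 or REF2 and 92 without DAC2 or DAC8. Leaving out a line leaves 5 values in the fit. In ES against EF arrays without block called 2. Gcat turned to 1.93 in iPS minus ES without DAC2, 1.97 in iPS minus EF without REF2, and 1.70 and 2.09 in ES minus EF without DAC8 and without REF2, in place of -0.36. Gldc turned to -1.15 in iPS minus ES without DAC8 and -0.78 in iPS minus EF without REF1. With the mean of probe sets Gldc ranked 404 rather than 113 in likeness to Tdh, the third probe set being below 5 on all arrays. The replicate block changed no call between lines. Leaving out 1 array at a time gave 5 to 6 linked enzymes in DAC2 against REF1 and 3 to 4 in REF2 against REF1, and the reported count in the other comparisons. Without the lines DAC8 and REF2, an alternative chosen after seeing the data, the counts of linked enzymes in iPS against DAC2, iPS against REF1 and DAC2 against REF1 were as reported. Levels below 5 for Tdh, and near 5 for Gcat and Gldc, limit what can be said of them in DAC8 and REF1.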
